A study of Homo sapiens with 4 samples.

Results

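The genes described here are 10 members of the calcium-binding S100 and annexin families, the S100 genes S100A4, S100A6, S100A10, S100A11 and S100A13 and the annexin genes ANXA1, ANXA2, ANXA4, ANXA5 and ANXA6. They were listed by symbol, and all 10 were found among the 62443 genes of the deposited table. The study sequenced RNA from HGC-27 cells, an undifferentiated human gastric cancer cell line. GLUP is a synthetic macrocyclic peptide built from the TEAD4-binding motif of VGLL4 and meant to bring molecules of the transcription factor TEAD4 together. GLUP was given at 10 μg/ml to the cells of 2 libraries, and the cells of 2 further libraries served as control. The sample labels record no treatment for the control cells, while the methods name the peptide's stocking buffer. The treatment lasted 12 h according to the results text and 48 h according to the methods. The methods call the samples of a group biological replicates, but nothing says which cultures they came from. The p-values therefore rest on the spread between these samples, which may be technical. In limma, the spread of each gene is also drawn toward the trend over all genes tested. The authors deposited FPKM, fragment counts corrected for gene length and library size, which allows a rough comparison of levels between genes and between libraries. The correction did not make the libraries fully comparable, since fold changes still moved with GC content, as described below.

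S100 proteins are small EF-hand proteins that mostly act as dimers. On binding calcium they expose a surface that grips target proteins, and several of them use annexins as targets. Annexins bind acidic phospholipids in a calcium-dependent way and so link membranes to each other and to the actin cortex. S100A10 is the exception among the S100 proteins, since it no longer needs calcium and forms a heterotetramer with annexin A2 at the plasma membrane, where the complex takes part in plasminogen activation. In carcinoma cells, S100A4 is known as a protein of migrating, mesenchymal-like cells that binds non-muscle myosin, and annexin A1 is known as a phospholipase A2 regulator and a ligand of formyl peptide receptors.

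The FPKM values of a library summed to between 909735 and 949919. Library depth is unknown, so the counting error of the values cannot be estimated. Across the 7588 genes tested, Pearson's r between log2 values was 0.933 for the control pair of libraries and 0.986 for the GLUP pair, so the control libraries were the less alike. Of the 8 gastric mucosa markers checked, 6 were listed at 0 in all 4 libraries, and the highest summed level of the list was 0.063 FPKM. EPCAM and CDH1, which define epithelial cells, were at or below 0.124 FPKM, and of the 3 mesenchymal markers, VIM stood between 293 and 387 FPKM, FN1 between 0.655 and 3.25 FPKM and CDH2 at or below 0.0508 FPKM. The stromal proteoglycan genes DCN (20.1 to 41.3 FPKM) and LUM (59.0 to 76.7 FPKM) were also listed well above 0, and the 5 fibroblast and endothelial markers found summed to 105 and 104 FPKM in control cells and 97.5 and 104 FPKM with GLUP. The 6 epithelial markers summed to 4.26 and 4.12 FPKM in control cells and 6.95 and 6.46 FPKM with GLUP. Of the 4 tested, 3 were higher in both GLUP libraries than in both control libraries, against 17.5% of all genes. None of the 4 had an unadjusted p under 0.05 in limma and a difference over 2-fold. EPCAM and CDH1, which were not tested, were lower in both GLUP libraries. The 4 tested markers lie in the highest quintile of GC content, where the median log2 fold change was 0.44. With the trend of fold changes with GC content removed, their log2 fold changes ran from −0.24 to 0.30. The part of these markers in the results was not tested. In a bulk sample, fewer cells of a type and less RNA per cell cannot be told apart.

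S100A4 was higher and ANXA1 lower in the GLUP libraries, and the promoters of both are shown here because they are the 2 members with an unadjusted p under 0.05 and a difference over 2-fold. The windows are RefSeq's 250 bases before the annotated start on GRCh38.p14, for S100A4 chr1:153545807-153546056 on the minus strand and for ANXA1 chr9:73151615-73151864 on the plus strand. Each is written 5′ to 3′ on the strand of the gene, with the TATA box letters TATAAA in capitals.
S100A4: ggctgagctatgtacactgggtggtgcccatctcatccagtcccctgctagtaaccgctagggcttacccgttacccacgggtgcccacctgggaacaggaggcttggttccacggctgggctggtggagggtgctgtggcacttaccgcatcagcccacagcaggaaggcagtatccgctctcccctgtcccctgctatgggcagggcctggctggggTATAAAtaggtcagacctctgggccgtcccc
ANXA1: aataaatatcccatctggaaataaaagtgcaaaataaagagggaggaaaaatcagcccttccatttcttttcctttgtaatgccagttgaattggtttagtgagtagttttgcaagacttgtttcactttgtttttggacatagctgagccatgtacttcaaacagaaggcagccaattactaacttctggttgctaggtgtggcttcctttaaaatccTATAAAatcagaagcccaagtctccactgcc

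Both windows hold TATAAA beginning 31 bases before the start. Over both strands and windows that reach 50 bases past the start, the same letters occur in 11.5% of the 35116 RefSeq promoter windows and in 4 of the 14 windows of the members, which belong to 4 of the 10 genes, the other two being ANXA2 and S100A13. ANXA2 has the letters at the same distance of 31 bases, and S100A13 at 29 bases in 1 of its 3 windows. The GC box GGGCGG was found in 9 of the 14 windows of members, against 45% of all windows; these windows belong to 8 of the 10 genes, and the box was missing from the windows of S100A4 and ANXA1. The AP-1 letters TGANTCA were found in 1 of the 14 windows, that of ANXA2 (7.71% of all windows). The M-CAT letters GGAATG, to which TEAD factors bind, were in 0 of the 14 windows of members and in 14% of all windows. The promoters of S100A4 and ANXA1 differ in base composition, with a GC content of 60.7% and 8 CG dinucleotides in the 300-base window of S100A4, and 37.7% and 0 in that of ANXA1, where the median of all windows is 58.7% and 14.

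The levels of the 10 genes covered more than 3 orders of magnitude. In control cells the order by mean FPKM was ANXA2, ANXA1, S100A11, S100A10, S100A4, S100A13, ANXA5, ANXA4, S100A6 and ANXA6. ANXA2 and ANXA1 overlapped in their libraries, as did S100A4 with S100A13, S100A13 with ANXA5, and S100A6 with ANXA6, and the other neighbours in this order did not overlap. In GLUP-treated cells no neighbours overlapped, and the order was ANXA2, S100A11, ANXA1, S100A10, S100A4, S100A13, ANXA5, ANXA4, ANXA6 and S100A6. Thus ANXA1 lay above S100A11 in both control libraries and below it in both GLUP libraries. Among the 7588 genes tested, ANXA2 ranked 39th and 110th in the control libraries and 61st and 57th with GLUP, and S100A11 between 96th and 113th in all 4.

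**Figure D1:**
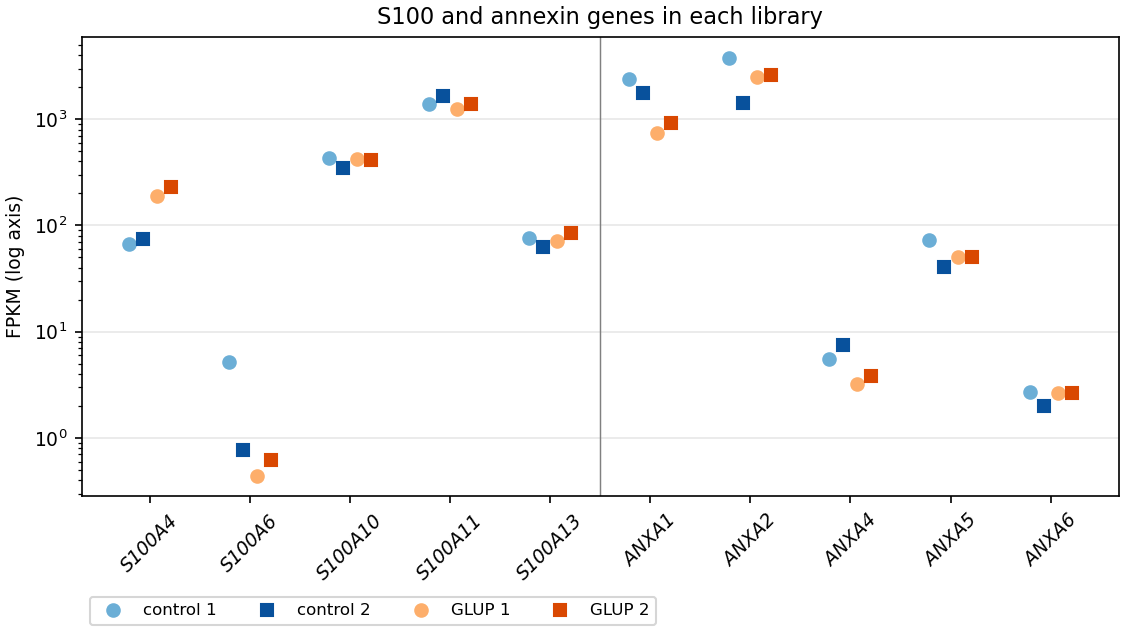
FPKM (log axis) of the 5 S100 genes and the 5 annexin genes in each of the 4 libraries, with circles for replicate 1 and squares for replicate 2, control in blue and GLUP in orange. S100A4 is the member whose GLUP libraries both lie above the control libraries, and the lone high value of S100A6 is control replicate 1.

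All 10 members passed the filter on low values (at least 1 FPKM on average) and were tested. S100A6 passed only through control replicate 1 (5.18 FPKM), being under 1 FPKM in the other libraries. The filter itself thus favoured a lower level of S100A6 with GLUP, and its place in the counts below is no support for one. After Benjamini-Hochberg adjustment in limma, 0 of the 10 had an adjusted p under 0.05 with a fold change over 2, a rule that 2 genes, or 0.0264% of those tested, passed. Of the 10, 2 had an unadjusted p under 0.05 (31.7% of all genes), and both also differed by more than 2-fold (19.2% of all genes). By this unadjusted rule, S100A4 alone was higher with GLUP (1 of 10, against 4.67% of all genes) and ANXA1 alone was lower (1 of 10, against 14.5%). Both GLUP libraries lay above both control libraries for 1 member (17.5% of all genes) and below them for 4 (49.7% of all genes), namely S100A6, S100A11, ANXA1 and ANXA4. An exact permutation test was left out, because 2 libraries in each group allow no two-sided p smaller than 0.333. The 5 S100 genes had a median log2 fold change of 0.12 and the 5 annexins one of −0.10, beside −0.36 for the whole set of tested genes.

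Of the S100 genes, S100A4 (ENSG00000196154, chromosome 1 from 153516089 to 153522612 on GRCh37) was the one past the unadjusted rule. Control cells had 67.1 and 74.5 FPKM and GLUP-treated cells 190 and 230 FPKM. The lowest GLUP library was thus far above the highest control library. The group means were 70.8 ± 5.19 FPKM and 210 ± 28.3 FPKM (SD, n = 2 each), a ratio of 2.97. The log2 fold change was 1.55 (standard error 0.32, 95% interval 0.75 to 2.35), with an unadjusted p of 0.0033 and an adjusted p of 0.10 from limma. It stayed between 1.32 and 1.89 under the alternatives tried, the lowest being the value with the GC trend removed. S100A4 overlaps S100A3 on the same strand, and how reads shared by both were counted is not stated. S100A3, however, had 1.40 and 0.304 FPKM in control cells and 0.575 and 1.17 FPKM with GLUP, far below S100A4 in every library.

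S100A6, whose protein binds the calcyclin-binding protein CACYBP, was the lowest of the 10 with GLUP. It was at 5.18 FPKM in control replicate 1, at 0.777 FPKM in control replicate 2, and at 0.443 and 0.617 FPKM with GLUP. The groups did not overlap, but control replicate 2 lay much nearer to the GLUP libraries than to control replicate 1. The group means were 2.98 ± 3.11 FPKM and 0.53 ± 0.123 FPKM (SD, n = 2 each), so that control cells had 5.62 times the level of GLUP-treated cells, a wider ratio than that of S100A4 but one that rests on control replicate 1. Its log2 fold change of −1.12 had an adjusted p of 0.226 from limma (95% interval −2.54 to 0.30). With the GC trend removed it was −1.60 (unadjusted p = 0.00812 and adjusted p = 0.215 from limma) and passed the unadjusted rule, as 4.57% of all genes did in that direction. Because S100A6 entered the test only through control replicate 1, these values are no support for a decrease with GLUP. Leaving out control replicate 2 gave −2.02, and leaving out control replicate 1 gave −0.22. An lncRNA on the opposite strand, ENSG00000238279, overlaps S100A6 and was listed between 0 and 0.828 FPKM, close to the levels of S100A6 outside control replicate 1. No source says whether reads were counted by strand.

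The other S100 members did not pass either rule. S100A10, the annexin A2 partner, had 428 and 349 FPKM in control cells and 424 and 413 FPKM with GLUP, so that both GLUP values lay inside the control range. S100A11, which binds annexin A1, was the most abundant of the S100 genes, at 1395 and 1638 FPKM in control cells and 1258 and 1380 FPKM with GLUP. Both of its GLUP values lay below both control values, but by a small margin. S100A13, a carrier in the unconventional release of FGF1, stood at 76.8 and 62.7 FPKM in control cells and at 71.6 and 84.8 FPKM with GLUP, with overlapping groups. The 95% intervals of the log2 fold change were −0.64 to 0.87 for S100A10, −0.87 to 0.47 for S100A11 and −0.65 to 0.98 for S100A13, and none of the 3 had an adjusted p under 0.618 in limma.

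Among the annexins, ANXA1 (ENSG00000135046, chromosome 9 from 75766781 to 75785309 on GRCh37) was the one past the unadjusted rule. Control cells had 2386 and 1754 FPKM and GLUP-treated cells 745 and 921 FPKM. Both GLUP libraries lay well below both control libraries. The means were 2070 ± 447 FPKM and 833 ± 124 FPKM (SD, n = 2 each), so that control cells had 2.49 times the level of GLUP-treated cells. The log2 fold change was −1.30 (standard error 0.31, 95% interval −2.06 to −0.55), with an unadjusted p of 0.00575 and an adjusted p of 0.10 from limma. Fold changes moved with GC content over the whole table, with a median log2 fold change of −0.78 in the lowest quintile of GC content and 0.44 in the highest. ANXA1, whose longest transcript has a GC content of 39.3%, falls in the lowest quintile. With the GC trend removed, ANXA1 was at −0.57 (unadjusted p = 0.147 and adjusted p = 0.394 from limma) and no longer passed the unadjusted rule, whereas S100A4, at a GC content of 55.2%, was at 1.32 (unadjusted p = 0.0101 and adjusted p = 0.215 from limma). The part of GC content in these differences was not tested further.

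ANXA2, the partner of S100A10, was the most abundant member in both groups. It stood at 3798 FPKM in control replicate 1, 1423 FPKM in control replicate 2, and 2517 and 2627 FPKM with GLUP. The GLUP libraries lay between the control libraries, which differed from each other by 2.67 times. The log2 fold change was 0.15 (95% interval −1.05 to 1.34, adjusted p = 0.846 from limma). It became −0.56 when control replicate 2 was left out and 0.85 when control replicate 1 was left out. The processed pseudogene ANXA2P2 followed ANXA2, at 107 and 29.4 FPKM in control cells and at 62.5 and 57.8 FPKM with GLUP, and ANXA2 was between 35.4 and 48.4 times as high as ANXA2P2 in the 4 libraries. Reads can be split between these near-identical copies, and the sum of ANXA2 with its 3 pseudogene copies gave a log2 fold change of 0.14.

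ANXA4, an annexin of epithelial membranes, was at 5.58 and 7.42 FPKM in control cells and at 3.23 and 3.87 FPKM with GLUP. All control values lay above all GLUP values, but the log2 fold change of −0.71 had an unadjusted p of 0.0547 and an adjusted p of 0.164 in limma. The longest ANXA4 transcript has a GC content of 38.9%, and with the GC trend removed the log2 fold change was 0.03. ANXA5, the phosphatidylserine binder used to stain apoptotic cells, was at 73.4 and 40.4 FPKM in control cells and at 50.7 and 50.9 FPKM with GLUP, inside the control range. ANXA6, which has a doubled annexin core, was at 2.70 and 2.02 FPKM in control cells and at 2.63 and 2.66 FPKM with GLUP, also inside it. The 95% intervals of the log2 fold change were −1.09 to 0.89 for ANXA5 and −0.53 to 0.78 for ANXA6.

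**Figure D2:**
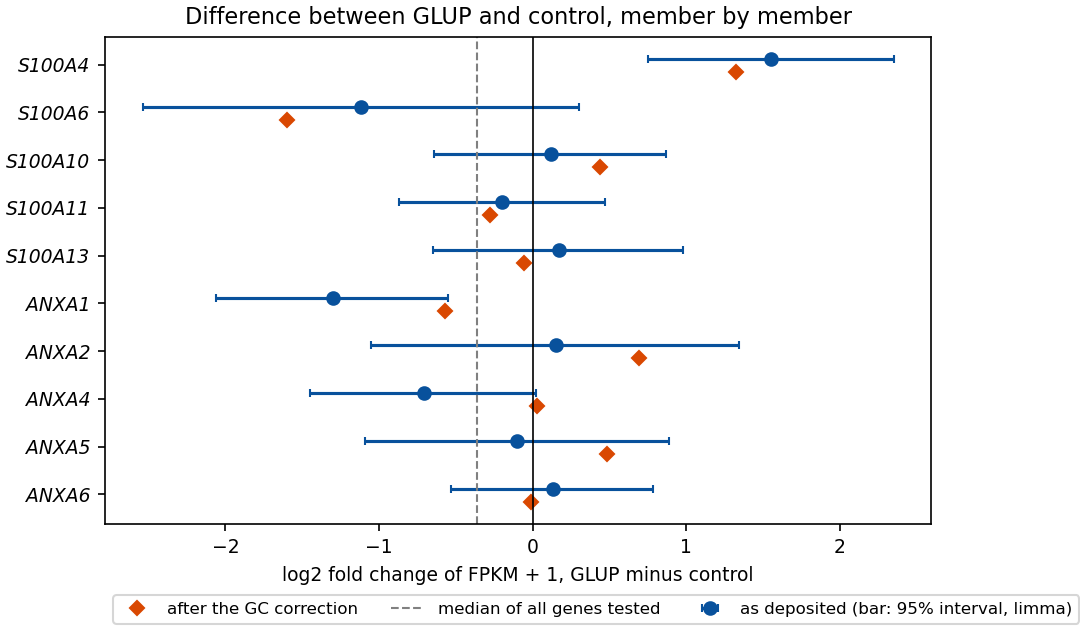
Log2 fold change of each member on the log2(FPKM + 1) scale, GLUP minus control, with the 95% interval from limma (blue) and the value after the GC correction (orange diamonds); the dashed line is the median of all 7588 genes tested, −0.36. The intervals of S100A4 and ANXA1 exclude 0, and the correction moves ANXA1 to −0.57 and S100A4 to 1.32.

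**Figure D3:**
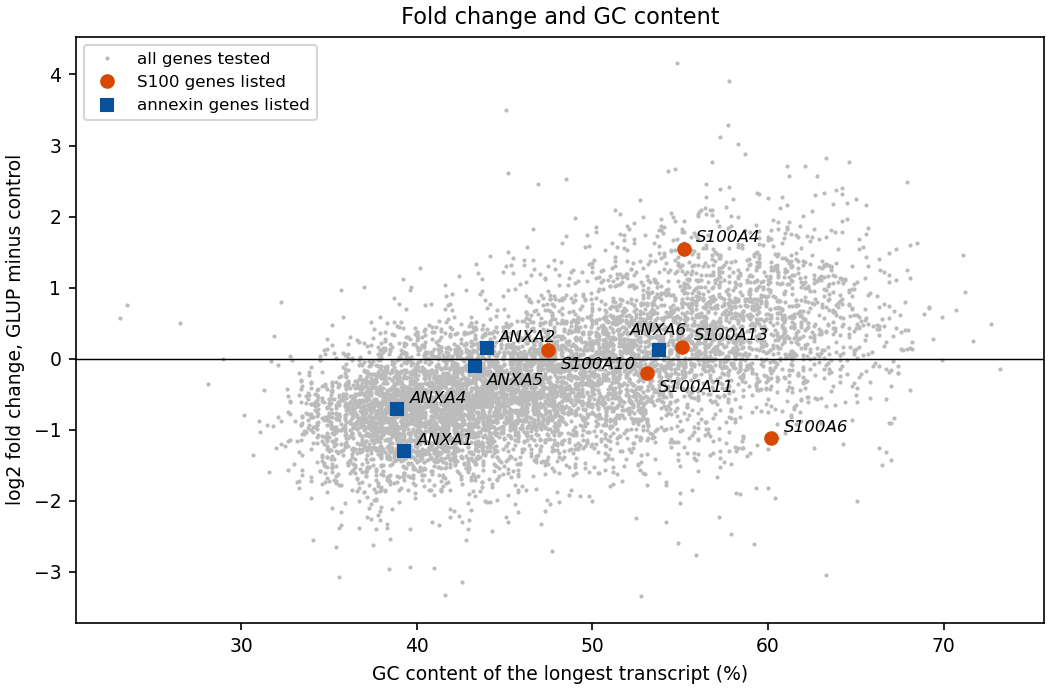
Log2 fold change (GLUP minus control) against the GC content in percent of the longest transcript, for all genes tested (grey) and the 10 members (orange circles for S100 genes, blue squares for annexins). ANXA1 and ANXA4 lie in the low-GC cloud of negative values, while S100A4 lies above and S100A6 below most genes of their own GC content.

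Within each family, the shares of single genes differed between the groups. For S100A4 and ANXA1 this follows from how they were picked, since they are the members past the unadjusted rule. The shares of S100A11 and ANXA2 moved the other way within the same totals. All shares keep the GC trend. The summed FPKM of the 5 S100 genes was 1972 and 2124 in the control libraries and 1944 and 2108 with GLUP, so the totals of the groups overlapped. Within it, S100A4 made up 3.40% and 3.51% in control cells and 9.78% and 10.9% with GLUP, and S100A11 made up 70.8% and 77.1% against 64.7% and 65.5%. The summed FPKM of the 5 annexins was 6267 and 3228 in the control libraries and 3319 and 3605 with GLUP, with control replicate 1 above the rest. ANXA1 made up 38.1% and 54.4% of it in control cells and 22.4% and 25.5% with GLUP, and ANXA2 60.6% and 44.1% against 75.8% and 72.9%.

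**Figure D4:**
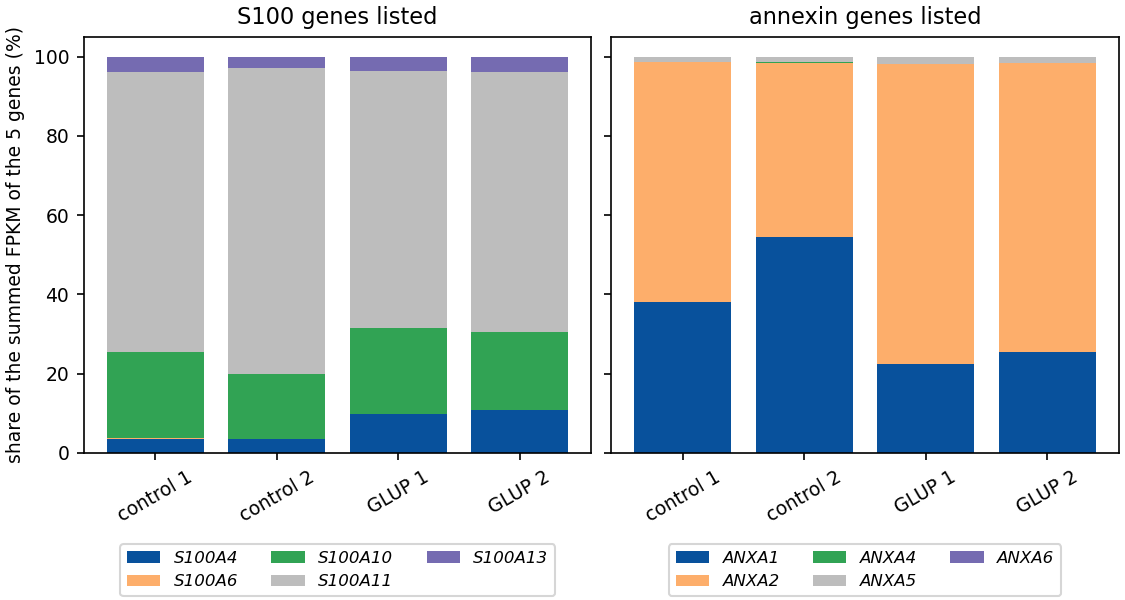
Share in percent of the summed FPKM of the 5 S100 genes (left) and of the 5 annexin genes (right) taken by each gene, with 1 bar for each library. The S100A4 share is 9.78% and 10.9% with GLUP against 3.40% and 3.51% in control cells, and the ANXA1 share is 22.4% and 25.5% against 38.1% and 54.4%.

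Ratios within a library do not depend on how libraries are scaled against each other, but they keep the GC trend. S100A4 over ANXA1 was 0.0281 and 0.0424 in the control libraries and 0.255 and 0.250 with GLUP, the widest separation among the ratios computed. S100A4 and ANXA1 are the members past the unadjusted rule, so this separation follows from how they were picked. S100A11 over ANXA1 was 0.585 and 0.934 in control cells and 1.69 and 1.5 with GLUP. With the GC trend removed, the log2 fold changes were −0.28 for S100A11 and −0.57 for ANXA1, closer together than the −0.20 and −1.30 before. S100A10 over ANXA2, the partners of the heterotetramer, was 0.113 and 0.245 in control cells and 0.168 and 0.157 with GLUP. S100A4 over S100A10 was 0.157 and 0.214 in control cells and 0.448 and 0.558 with GLUP. The groups thus separated in the ratios with ANXA1 or S100A4 and overlapped in that of S100A10 to ANXA2.

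Most S100 genes lie in a cluster on chromosome 1, where 14 of the 16 listed there fall within 274 kb and S100A10 and S100A11 lie apart. Of the tested genes in this row, S100A4 was the one with each GLUP value above each control value. Its neighbour S100A5 was listed at 0 in 3 libraries and at 0.176 FPKM in control replicate 1, and S100A2 stood at 6.98 and 4.40 FPKM in control cells and 3.37 and 4.39 FPKM with GLUP. S100A16 was at 23.5 FPKM in control replicate 1, 4.35 FPKM in control replicate 2, and 19.6 and 16.5 FPKM with GLUP, so the control libraries spanned the GLUP values. S100A8, S100A9 and S100A12, the calgranulins of myeloid cells, were listed at 0 in all 4 libraries.

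**Figure D5:**
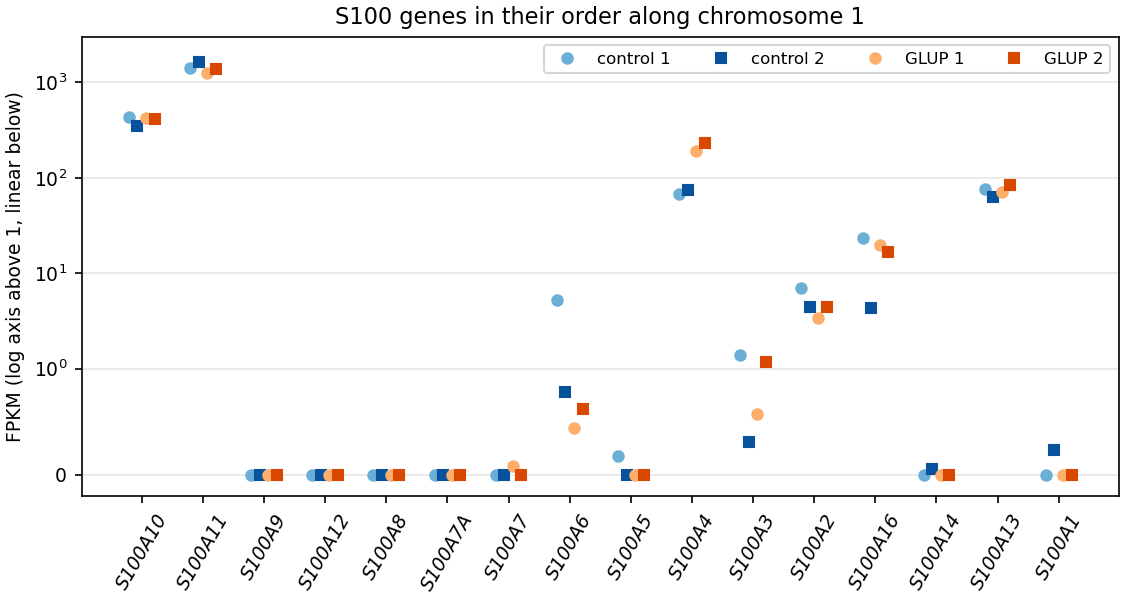
FPKM of the 16 S100 genes of chromosome 1 in their order along it, in each library (log axis above 1, linear below, so that values listed at 0 can be shown). S100A10, S100A11, S100A4 and S100A13 are the abundant ones, and S100A4 is the one whose GLUP values (190 and 230 FPKM) stand clear above the control values.

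Of the other 15 S100 genes, 7 were listed at 0 in all 4 libraries and 2 were tested (S100A2 and S100A16), and of the other 8 annexins 2 were listed at 0 throughout and 2 were tested (ANXA7 and ANXA11). Of these 4, 0 passed the adjusted or the unadjusted rule in limma, and 0 had an unadjusted p under 0.05. ANXA7 stood at 14.6 and 8.42 FPKM in control cells and 8.26 and 7.56 FPKM with GLUP. ANXA11 stood at 2.00 and 5.97 FPKM in control cells and 1.36 and 1.51 FPKM with GLUP. Both had their GLUP values below their control values, as 49.7% of all genes did.

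Receptors and partners of these proteins were examined as lists. Of 6 receptors, BSG alone was tested, and the formyl peptide receptor genes FPR1 and FPR2, the receptors for annexin A1, were listed at 0 in every library. BSG, which encodes basigin, was at 39.2 and 23.4 FPKM in control cells and at 80.2 and 76.2 FPKM with GLUP, a log2 fold change of 1.34 (unadjusted p = 0.013 and adjusted p = 0.105 from limma) that was 0.80 with the GC trend removed. Of 12 binding partners, 9 were tested, 0 were higher and 2 were lower by the unadjusted rule, against 14.5% of all genes, and the median log2 fold change of the 9 was −0.67. These were SUGT1, a co-chaperone that binds S100A6, at 42.4 and 55.4 FPKM against 17.1 and 18.0 FPKM, and S100PBP, the S100P-binding protein gene, at 3.35 and 4.03 FPKM against 1.44 and 1.04 FPKM. With the GC trend removed, neither passed the rule (log2 fold changes −0.62 and −0.44).

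Plasminogen activation, in which the S100A10 and annexin A2 complex takes part, was represented by 7 genes, of which 3 were tested. ENO1, a glycolytic enzyme that also serves as a plasminogen receptor, was the one past the unadjusted rule, against 4.67% of all genes in that direction. It was at 1521 FPKM in control replicate 1, 230 FPKM in control replicate 2 and 3092 and 2521 FPKM with GLUP. It failed the rule with every gene above 0 FPKM in the test, and with a mean of at least 5 FPKM required. The control libraries differed by 6.62 times, and without control replicate 2 it no longer passed. PLAT and PLAU, the genes of the plasminogen activators, were at or below 0.356 FPKM in every library. Of 16 membrane repair genes, 9 were tested, and CAV1, the main caveolar coat protein, was the only one past the unadjusted rule. That is 1 of 9 lower, against 14.5% of all genes. CAV1 was at 9.67 and 15.4 FPKM in control cells and 4.01 and 5.92 FPKM with GLUP. Its log2 fold change of −1.17 was −0.55 with the GC trend removed, and the median of the 9 was −0.09.

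Of 14 other EF-hand calcium binders and calcium-regulated proteins, 10 were tested, and 6 were lower by the unadjusted rule against 14.5% of all genes. The median log2 fold change of the 10 was −1.28. Of the 6, RCN1, CALU and NUCB2 are calcium binders of the secretory pathway and CETN2 is a centriole protein. RCN1 was at 9.90 and 10.5 FPKM in control cells and at 3.51 and 3.14 FPKM with GLUP, and CALU at 67.8 and 64.7 FPKM against 25.6 and 22.8 FPKM. NUCB2 was at 35.2 and 63.9 FPKM against 13.8 and 12.9 FPKM, and CETN2 at 14.1 and 20.8 FPKM against 6.37 and 6.05 FPKM. With the GC trend removed, 2 of the 10 were lower by the rule, against 4.57% of all genes, NUCB2 (log2 fold change −1.14) and the calmodulin gene CALM3 (−1.60, named after its values were seen), and none of the 10 had an adjusted p under 0.05 in limma with either setting.

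The genes nearest to the mean profile of each family were found by the Euclidean distance of centred log2(FPKM + 1) values over the 4 libraries. For the S100 genes these were ENTREP3, LUM and RMND5B (distances 0.0361, 0.0537 and 0.056). For the annexins they were NDUFC2, DDA1 and ZNF561-AS1 (0.0364, 0.0589 and 0.0733). NDUFC2, a subunit of respiratory complex I, stood at 177 and 124 FPKM in control cells and 107 and 117 FPKM with GLUP. Over 4 libraries many genes lie close to any profile, and the distances are given as a description.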

How the data were processed

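RNA-seq of HGC-27 cells was compared between 2 GLUP and 2 control libraries. The authors processed their reads on an online platform of Majorbio and deposited FPKM values per gene. The submitters' processing notes name HISAT2, Cufflinks, RSEM and GRCh38.p10 without versions or roles, while the gene identifiers have the form of GENCODE annotation lifted to GRCh37, so the build behind the values is uncertain. The 62492 rows were summed by gene ID to 62443 genes, and 99.55% of the IDs matched a name in GENCODE v44 lifted to GRCh37, which also gave positions, lengths and GC content. The 7588 genes averaging at least 1 FPKM in the 4 libraries entered the test, made on log2(FPKM + 1) with limma 3.58.1 in R 4.3.3 (trended variances, Benjamini-Hochberg adjustment over all of them). The fit was also run on simulated data with independent normal noise, alike in both groups. That setting is unlike these libraries, where the control pair was less alike than the GLUP pair, so it does not vouch for the p-values. The depth of the libraries is unknown.

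The members and gene lists were chosen with earlier results of these data known. Named are the 10 members, every other S100 gene and annexin with a mean of at least 1 FPKM, and the genes overlapping S100A4 and S100A6. Also named are the pseudogene copy ANXA2P2, up to 4 genes of each other list past the unadjusted rule, and the 3 genes nearest to each family's mean profile. Genes that overlap S100A11, S100A13, ANXA2 and ANXA4 are not named. Those of them found in the deposited values were at or below 1.42 FPKM in every library. To remove the GC trend, a lowess curve (span 0.3) of each library's deviations from gene means against longest-transcript GC content was subtracted. Settings for the lists of other genes were chosen after seeing the data. Promoter windows are from RefSeq (GRCh38.p14).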

Additional observations from a re-analysis of the deposited data

How the results depend on the processing

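S100A4 stayed above 0 and ANXA1 and S100A6 stayed below 0 under every alternative run, with ranges of 1.32 to 1.89, −1.53 to −0.57 and −2.49 to −0.22 in log2 fold change, where the lowest for S100A6 is the ratio of group means without a pseudocount. The adjusted p from limma ran from 0.00501 to 0.579 for S100A4 and from 0.0124 to 0.579 for ANXA1, and of the alternatives run was under 0.05 for either gene only without control replicate 1 (0.00501 and 0.0124) or without control replicate 2 (0.025 for both). Leaving out 1 library assumes that the lone library varies like the other group. Of 158 values of members under alternatives, 16 lay on the other side of 0. With the GC correction, S100A13 was −0.06, ANXA4 0.03, ANXA5 0.48 and ANXA6 −0.01, and these 4 values were also obtained with the GC correction and the replicate block together. With median centring, S100A11 was 0.14 and ANXA5 0.24, and with quantile normalization ANXA5 was 0.17. With 1 library left out, the log2 fold changes ran from −0.03 to 0.26 for S100A10, from −0.56 to 0.85 for ANXA2, from −0.52 to 0.32 for ANXA5 and from −0.02 to 0.27 for ANXA6. ANXA2 was −0.02 as the ratio of group means without a pseudocount. The causes were not tested.

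The number of members past the adjusted rule, 0, ran from 0 to 3 with 1 library left out: it was 2 without control replicate 1, where 35.7% of all genes passed in limma, and 3 without control replicate 2, where 13.4% passed. Past the unadjusted rule there was 1 higher member, against 4.67% of all genes, and 1 lower, against 14.5%. With median centring there was 1 higher, against 10.5% of all genes, and 0 lower, against 5.64%. These counts also moved with 1 library left out. The shares of all genes moved as well, so the changes are not particular to the members. With the GC correction the count of 1 lower, against 4.57% of all genes, stood for another gene, S100A6 in place of ANXA1. With the replicate block, 2 members were lower, S100A6 having joined ANXA1, against 16% of all genes. The block takes equal replicate numbers as a pair although no source ties them to a shared day. Equal numbers deviated together only weakly (Pearson r of 0.126 across genes). Non-overlapping members, 1 higher and 4 lower, numbered 2 and 2 with the GC correction, alone or with the block. They numbered 4 and 2 with median centring and 3 and 2 with quantile normalization. With 1 library left out they ran from 1 to 6 and from 4 to 8, where a lone library makes non-overlap easier for every gene. The share of all genes was not computed for these settings, so the counts describe the members only. The median of the S100 members, 0.12, was −0.06 with the GC correction, alone or with the block, and 0.46 with median centring. That of the annexins, −0.10, was 0.24 with median centring and ran from −0.54 to 0.27 with 1 library left out. Median centring shifts the median of all genes from −0.36 to −0.01. The log2 fold change of S100A6 could not be tested at a mean of at least 5 FPKM, nor that of ANXA6, which fall below it.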
